A study of Mus musculus with 24 samples.

Results

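Motile cilium genes encode the axoneme of beating cilia, the dynein motors that bend it and the regulators that switch the programme on. The 38 genes described here were taken from a list of known motile cilium genes, out of 30699 genes listed in at least 1 of 4 deposited tables. The members were chosen by their group means in WAT: the list was drawn up after genes of ciliated epithelium had been seen to differ between white adipose tissue (WAT) groups of these same data. Their WAT levels are therefore a description. Counts of genes called in WAT, also with libraries left out, are printed beside those over all genes and support nothing about the 38 genes. Brown adipose tissue (BAT), which the choice did not use, is tested. All 38 genes were listed in both WAT tables, 30 in the BAT antimiR-224 table and 33 in the BAT antimiR-452 table.

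Messenger RNA was sequenced from WAT and BAT of C57BL/6 mice. The control mice had received scramblemiR, a scrambled oligonucleotide, and the others antimiR-224 or antimiR-452, antisense oligonucleotides against miR-224 or miR-452. All were built with locked nucleic acid, a modified nucleotide that binds RNA tightly, and were given under the skin in 2 injections of 25 mg/kg. Each of the 6 groups (WAT scramblemiR, WAT antimiR-224, WAT antimiR-452, BAT scramblemiR, BAT antimiR-224 and BAT antimiR-452) had 4 libraries. The labels give neither the age or sex of the mice nor the WAT depot, and they do not say whether different libraries are different animals; p-values therefore measure only the spread between these libraries.

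A motile cilium is built on a ring of microtubule doublets around a central pair. Outer and inner dynein arms slide the doublets, while radial spokes, the nexin link and the central apparatus keep the beat in order. The transcription factor Foxj1 switches on most of these genes, together with RFX factors, and cells with many motile cilia line airways, oviduct, the efferent ducts of the testis and brain ventricles. The sperm tail has the same axoneme, built partly from the same genes and partly from sperm paralogues. Fat cells carry at most a primary cilium, which does not beat and uses few of these genes.

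The microRNAs named in the treatments are shown first, since inhibition could act on a transcript through matches to the seed (bases 2 to 8, in capitals) in its 3′ untranslated region. The labels do not name an arm, so both arms are given from RefSeq (GRCm38.p6), all on the minus strand of chromosome X.
mmu-miR-224-5p (chrX:72261085-72261105): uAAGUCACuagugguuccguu
mmu-miR-224-3p (chrX:72261037-72261058): aAAUGGUGcccuagugacuaca
mmu-miR-452-5p (chrX:72262271-72262292): uGUUUGCAgaggaaacugagac
mmu-miR-452-3p (chrX:72262235-72262256): uCAGUCUCaucugcaaagaggu
The seed of miR-224-5p had a match in the 3′ untranslated regions of Rfx3 and Cfap44, 2 of 38 genes, or 5.26%, beside 12.3% of 21691 genes. For miR-224-3p 0 of 38 genes had a match, beside 8.87% of all genes. The seed of miR-452-5p was matched in Zmynd10 and Cfap43, 2 of 38 genes or 5.26%, beside 9.37% of all genes. Foxj1, Rfx3, Dnah10 and Dnaaf1 had a match to the seed of miR-452-3p, 4 of 38 genes or 10.5%, beside 12.3% of all genes. The longest annotated 3′ untranslated region of each gene was searched, with a median of 339 bases for the 38 genes and 907 for all genes. A match of letters is a description and not a binding site.

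Promoters bear on genes that vary together, and the upstream 250 bases of 32 of the 38 genes were found in the RefSeq promoter table (GRCm38.p6). The letters GTTGCC, a core of the site bound by RFX factors such as Rfx3, stood on either strand in 12 of these 32 genes, 37.5%, beside 11.8% of 27025 genes with a promoter in the table. They were Mcidas, Ccno, Dnai2, Dnah7a, Dnah10, Drc1, Hydin, Cfap46, Cfap44, Ccdc113, Tekt1 and Tekt2. The letters TGTTTA, a core of forkhead sites such as that of Foxj1, stood in 7 of 32 genes, 21.9%, beside 13.5% of all genes. In 8 of the 12 genes a window of 30 bases around GTTGCC lay whole within the upstream stretch. These windows are shown in the direction of the gene, with the match in capitals (GTTGCC, or GGCAAC where it lies on the other strand).
Dnai2 (chr11:114727381-114727410, plus strand): ccagggttgctaGGCAACtggtaaactccg
Tekt2 (chr4:126325693-126325722, minus strand): gggcggttgctcGGCAACcagagccgcaaa
Cfap44 (chr16:44394768-44394797, plus strand): ggacgttgctatGGCAACcgcagtaaacgg
Tekt1 (chr11:72361900-72361929, minus strand): tcttctaactagGGCAACgttgcgtccgtc
Dnah10 (chr5:124725053-124725082, plus strand): cgcgctggcgccGTTGCCcaggtccccgtt
Dnah7a (chr1:53706967-53706996, minus strand): tcgctcctcacaGTTGCCtgccaccctctg
Mcidas (chr13:112993661-112993690, plus strand): gggggaagccagGTTGCCaggttggttaac
Ccno (chr13:112987571-112987600, plus strand): acccgggctgcgGTTGCCacggtgacgaca
In Dnai2, Tekt2, Cfap44 and Dnah10 the match began 19 to 26 bases before the start site, in Tekt1 35 bases before it, and in Dnah7a, Mcidas and Ccno 195 to 219 bases before it. These are letters in a window, and nothing is read from them about binding.

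The deposited tables hold group means of normalized counts, and the reads of each library were recovered from them. Libraries are numbered 1 to 4 within a group by descending size factor, a number that ties no library to another group. Controls held 22175430 to 27935908 reads in genes in WAT and 16960694 to 20255777 in BAT, and size factors of all libraries lay between 0.857 and 1.25. The adipocyte hormone Adipoq, a marker of fat, had normalized counts of 58717 to 97874 in the WAT controls.

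Several WAT libraries stood apart. Libraries 1 and 2 of antimiR-224 and libraries 1, 2 and 3 of antimiR-452 had high counts of ciliary genes together with epithelial genes. Library 2 of scramblemiR and libraries 3 and 4 of antimiR-224 had high counts of sperm-lineage genes, with a geometric mean over 25 spermatid and sperm genes of 1442, 347 and 88.4, against 1.63 to 32.6 in the other 9 WAT libraries. The values that follow are given by library for this reason. In bulk tissue, fewer cells of a type and less RNA per cell cannot be told apart.

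Over all 38 genes, the geometric mean of the normalized count was 12.8, 157, 6.35 and 53.9 in scramblemiR libraries 1 to 4 of WAT. It was 354, 425, 63.3 and 19.9 in antimiR-224 libraries 1 to 4, and 217, 338, 274 and 5.95 in antimiR-452 libraries 1 to 4. The groups overlapped widely, since library 4 of antimiR-452 was the lowest of all 12 and library 2 of scramblemiR exceeded both low antimiR-224 libraries. As a mean over 4 libraries, the level was 57.4 ± 69.4 (SD, n = 4) in controls, 215 ± 204 (SD, n = 4) under antimiR-224 and 209 ± 144 (SD, n = 4) under antimiR-452. At least 100 normalized counts were reached by 36 of 38 genes in antimiR-224 library 2, by 34 in antimiR-452 library 2, by 31 in scramblemiR library 2, by 8 in scramblemiR library 4, and by 2 or 3 in scramblemiR libraries 1 and 3 and antimiR-452 library 4. ScramblemiR library 4 was low but even: all 38 genes were lower there than in antimiR-224 library 2 and 37 of 38 were detected.

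**Figure D1:**
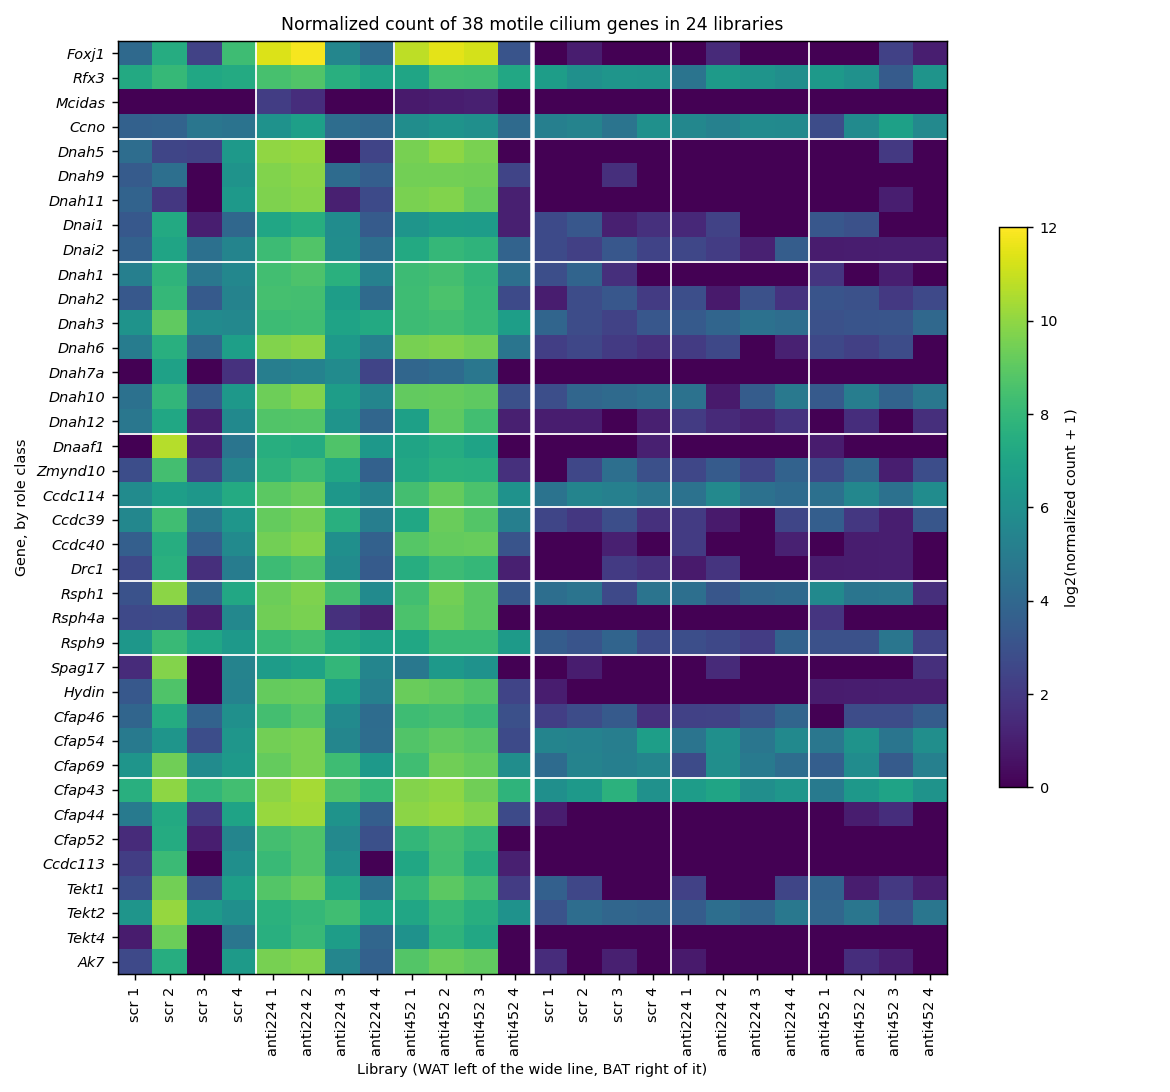
Heat map of the log2(normalized count + 1) of the 38 genes (rows, by role class) in the 24 libraries (columns), WAT left of the wide line and BAT right of it; genes not listed in a BAT table hold no reads. The 5 bright columns in WAT are antimiR-224 libraries 1 and 2 and antimiR-452 libraries 1, 2 and 3, while scramblemiR library 2 is bright for Dnaaf1, Spag17 and Tekt2 and dark for Dnah5, Dnah11 and Rsph4a.

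The authors' deposited table gave a higher mean with antimiR-224 for 34 of 38 genes, with a median log2 ratio of 1.54 over the 37 genes with a finite ratio, beside -0.02 over 17903 genes with a mean of at least 10, of which 47.1% were higher. With antimiR-452 the authors' deposited table gave a higher mean for 33 of 38 genes and a median log2 ratio of 1.61, beside -0.04 over 17824 genes, of which 43.2% were higher. Both comparisons share the 4 control libraries. Without scramblemiR library 2 the medians over recovered counts were 3.33 and 3.20. These WAT values chose the genes and support nothing further. No gene of the 38 had all 4 antimiR-224 libraries above all 4 controls, as 1.75% of 14990 genes did, and none had all 4 antimiR-452 libraries above them, as 1.14% of 14011 genes did.

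By limma on recovered counts with Benjamini-Hochberg adjustment, 0 of 36 genes tested passed an adjusted p under 0.05 in WAT with antimiR-224, where 0 of 14576 genes were called, 0%, and 851, none of them among the 36, had an unadjusted p under 0.05. With antimiR-452 it was 0 of 37 genes, where 0 of 13366 genes were called, 0%, and 659, among them 3 of the 37, had an unadjusted p under 0.05. By the authors' deposited adjusted p, 0 of 38 genes passed in either WAT table, with 1 of 29128 genes called, 0.00343%, for antimiR-224 and 0 of 29079, 0%, for antimiR-452. These counts changed with the libraries included. With scramblemiR 2 and antimiR-224 3 and 4, the sperm-high libraries, left out, limma called 23 of 36 genes and 1221 of 13693 genes with antimiR-224. With scramblemiR 2 left out, it called 0 of 36 genes and 0 of 12515 genes with antimiR-452. Without antimiR-452 library 4, it called 8 of 37 genes and 555 of 13443 genes. Since the genes and the sperm-high libraries were picked from WAT values, such counts are no test of the genes and support nothing.

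The regulators differed among themselves. Foxj1 (chr11:116330704-116335399, minus strand, GRCm38), the forkhead factor of the programme, had normalized counts of 15.9, 171, 4.17 and 306 in scramblemiR libraries 1 to 4, 2615, 3714, 44.7 and 17.7 in antimiR-224 libraries 1 to 4, and 1767, 2945, 2383 and 7.77 in antimiR-452 libraries 1 to 4. The 5 libraries above 1700 lay well over all controls, and the other 3 inhibitor libraries lay within the controls' range. Its means were 124 ± 143 in controls, 1598 ± 1864 under antimiR-224 and 1776 ± 1273 under antimiR-452 (SD, n = 4 each). Per kilobase of exon, Foxj1 was also the highest of the 38 genes in antimiR-224 library 2, at 1416 normalized counts per kb, followed by Rsph1 at 592.

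Rfx3 (chr19:27761721-28011166, minus strand), an RFX factor that also acts outside motile cilia, was present in every WAT library. It had 153, 261, 142 and 161 counts in the controls, 358, 432, 189 and 122 in the antimiR-224 libraries, and 134, 325, 314 and 145 in the antimiR-452 libraries. Its highest and lowest WAT libraries thus differed far less than those of Foxj1, and antimiR-452 library 1, high in Foxj1, was among the low ones. Mcidas, which starts the multiciliated state early and transiently, was at 0 in all 4 controls, at 3.49, 1.94, 0 and 0 in antimiR-224 libraries, and at 0.842, 0.951, 1.06 and 0 in antimiR-452 libraries, so it had reads in the same 5 libraries as high Foxj1, at the limit of detection. Ccno, its neighbour on chromosome 13 and needed to multiply basal bodies, had 12.4, 13.2, 25.0 and 23.0 in the controls, 68.9, 107, 18.5 and 15.5 in the antimiR-224 libraries, and 57.3, 71.3, 61.2 and 16.7 in the antimiR-452 libraries. Those same 5 libraries lay above 57 and all others at 25 or below.

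Outer arm dynein had the highest median log2 ratios of the role classes, 4.03 with antimiR-224 and 4.35 with antimiR-452. The highest finite ratios of a single gene were those of the radial spoke gene Rsph4a, 4.61 and 4.65. Dnah5 (chr15:28203752-28472052, plus strand), a heavy chain motor of the outer arm, had 18.6, 4.70, 4.17 and 85.0 counts in the controls, 1034, 1106, 0 and 4.43 in the antimiR-224 libraries, and 749, 982, 774 and 0 in the antimiR-452 libraries. Dnah9, a heavy chain of the distal outer arm, had 9.73, 19.7, 0 and 71.2 in the controls, 847, 975, 17.5 and 11.1 in the antimiR-224 libraries, and 689, 702, 680 and 4.44 in the antimiR-452 libraries. For both motors the 5 libraries lay over 600 and the other 7 under 90, with scramblemiR library 4 the highest of those 7. Dnah11, the third heavy chain, ranged from 584 to 905 in those 5 libraries and from 0 to 89.6 elsewhere. The intermediate chains Dnai1 and Dnai2 behaved less evenly, since scramblemiR library 2, near 0 for Dnah5 and Dnah11, had 153 counts of Dnai1 and 129 of Dnai2. The authors' deposited table gave log2 ratios of 4.25, 4.20 and 4.03 for Dnah5, Dnah9 and Dnah11 with antimiR-224, but 1.11 and 1.98 for Dnai1 and Dnai2.

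**Figure D2:**
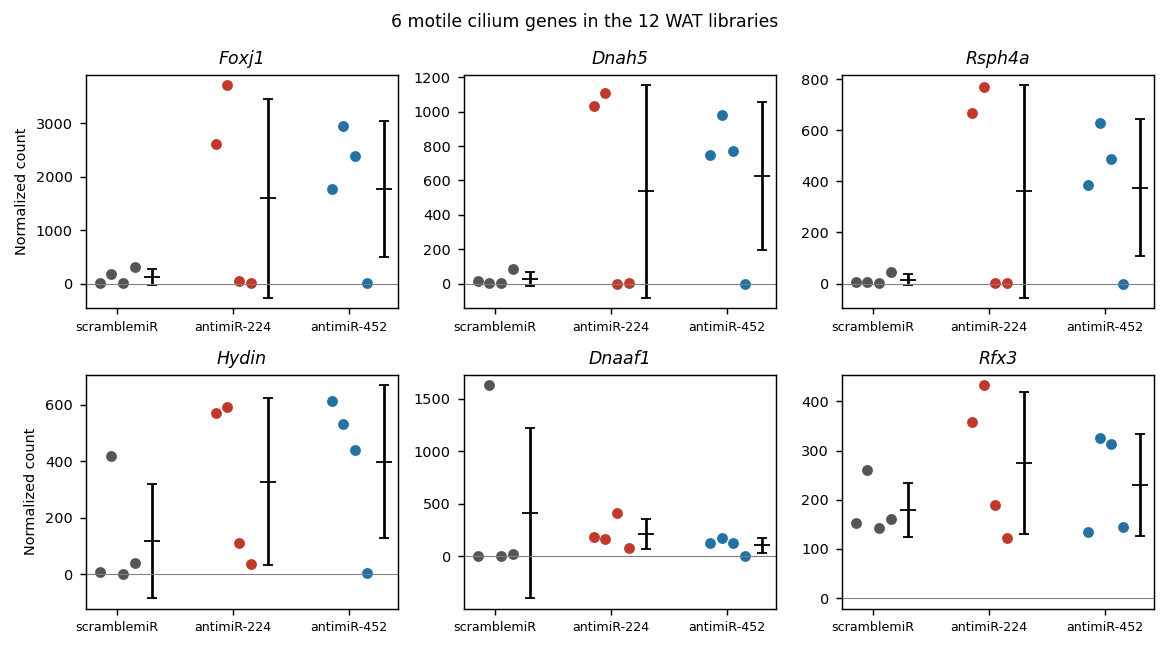
Normalized count (linear axis from below 0, with 0 marked) of 6 genes in the 12 WAT libraries; points are libraries and the bar beside each group is its mean and SD (n = 4), which runs below 0 where the spread exceeds the mean. Foxj1, Dnah5 and Rsph4a were high in the same 5 inhibitor libraries and near 0 in the other 3, while Dnaaf1 was highest in scramblemiR library 2 at 1626.

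Among the 7 inner arm dynein heavy chains, Dnah6 and Dnah10 had the highest means. Dnah6 had 31.9, 191, 15.6 and 108 counts in the controls, 837, 958, 87.3 and 36.6 in the antimiR-224 libraries, and 733, 816, 703 and 24.4 in the antimiR-452 libraries. Dnah10 had 21.2, 236, 9.38 and 83.8 in the controls, 654, 843, 101 and 43.2 in the antimiR-224 libraries, and 554, 573, 516 and 6.66 in the antimiR-452 libraries. In both, scramblemiR library 2 stood between the 5 high libraries and the rest, unlike in Dnah5. Dnah3 went further, with 532 in scramblemiR library 2 against 321 in antimiR-224 library 2, and it kept at least 48.2 counts in every WAT library. Dnah7a was highest in scramblemiR library 2, at 117, with 14.3 to 54.5 in the 5 high libraries and antimiR-224 library 3. It has close copies (Dnah7b and Dnah7c) between which reads may have been split, so its level is uncertain.

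Dynein arms are assembled in the cytoplasm before they enter the cilium. Dnaaf1, an assembly factor, had 0, 1626, 1.04 and 24.1 counts in the controls, 186, 168, 411 and 84.2 in the antimiR-224 libraries, and 126, 172, 124 and 0 in the antimiR-452 libraries. Its highest library was a control and its second highest was antimiR-224 library 3, both high in sperm-lineage genes. Its mean was 413 ± 809 with scramblemiR (SD, n = 4), and the authors' deposited table gave log2 ratios of -0.96 and -1.98 in the antimiR-224 and antimiR-452 comparisons. Without scramblemiR library 2 the 3 remaining controls lay at or below 24.1. Ccdc114, part of the complex that docks outer arms on the doublet, had 54.9, 104, 81.3 and 161 in the controls, 501, 608, 80.7 and 41.0 in the antimiR-224 libraries, and 336, 572, 391 and 68.8 in the antimiR-452 libraries. It followed the same 5 libraries and had at least 41.0 counts in every other. Zmynd10, an assembly factor, was highest in scramblemiR library 2, at 335, beside 302 in antimiR-224 library 2.

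Ccdc39 and Ccdc40 form the ruler that sets the spacing of inner arms and spokes. Ccdc40 had 11.5, 175, 11.5 and 51.7 counts in the controls, 695, 837, 62.2 and 12.2 in the antimiR-224 libraries, and 455, 568, 587 and 7.77 in the antimiR-452 libraries. Ccdc39 had 46.0, 323, 27.1 and 77.0 in the controls, 578, 692, 192 and 34.4 in the antimiR-224 libraries, and 141, 606, 438 and 35.5 in the antimiR-452 libraries. For Ccdc39 the control library 2 exceeded antimiR-452 library 1, which for Ccdc40 it did not. Drc1, of the nexin link, lay between 175 and 403 in the 5 high libraries and had 194 in scramblemiR library 2.

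The 3 radial spoke genes split widely. Rsph4a (chr10:33905111-33916021, plus strand), a spoke head protein of cilia, had 5.31, 5.64, 1.04 and 47.1 counts in the controls, 669, 770, 2.18 and 1.11 in the antimiR-224 libraries, and 385, 627, 488 and 0 in the antimiR-452 libraries. Rsph1, of the same spoke head and also used in sperm, had 7.08, 979, 14.6 and 146 in the controls, 622, 812, 341 and 53.2 in the antimiR-224 libraries, and 334, 698, 492 and 8.88 in the antimiR-452 libraries. Rsph4a was thus near 0 in all 3 sperm-high libraries, where Rsph1 had 979, 341 and 53.2. Rsph9 was present throughout, from 81.4 to 334 counts.

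Among central apparatus genes the 2 highest were Hydin and Cfap69. Hydin, a very large protein of the central pair, had 8.85, 418, 0 and 39.1 counts in the controls, 568, 593, 109 and 36.6 in the antimiR-224 libraries, and 611, 532, 439 and 4.44 in the antimiR-452 libraries. Cfap69 had 75.2, 666, 54.2 and 86.1 in the controls, 568, 772, 309 and 87.6 in the antimiR-224 libraries, and 318, 676, 581 and 58.8 in the antimiR-452 libraries. Both had scramblemiR library 2 within or near the range of the 5 high libraries. Spag17 (chr3:99885406-100143322, plus strand), another central pair protein, was highest in scramblemiR library 2 at 880 and next in antimiR-224 library 3 at 242, while the 5 high libraries held 27.0 to 121. Cfap54 showed the other pattern, with 76.1 in scramblemiR library 2 and 431 to 770 in the 5 high libraries.

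Cfap43 and Cfap44, which tether inner arms to the doublet, were the highest of the remaining 8 axoneme genes. Cfap43 had 188, 982, 240 and 327 counts in the controls, 970, 1343, 412 and 258 in the antimiR-224 libraries, and 862, 1003, 675 and 224.3 in the antimiR-452 libraries. Cfap44 had 30.1, 156, 3.13 and 125 in the controls, 1144, 1258, 69.8 and 11.1 in the antimiR-224 libraries, and 963, 1108, 873 and 5.55 in the antimiR-452 libraries. Cfap43 was high in every WAT library, whereas Cfap44 had at most 30.1 counts in 4 of them. The tektins, filaments within the doublets, leaned the other way: Tekt2 had 1104 and Tekt4 625 in scramblemiR library 2, against 251 and 276 in antimiR-224 library 2. Cfap52, Ccdc113, Tekt1 and Ak7 were above 130 in all 5 high libraries and above 160 in scramblemiR library 2.

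The level of each gene in scramblemiR library 2 over that in antimiR-224 library 2 showed this spread. On the log2(count + 1) scale it ran from -7.89 for Dnah11, -7.60 for Dnah5 and -6.86 for Rsph4a to 2.85 for Spag17 and 3.27 for Dnaaf1, with a median of -1.08, and it was above 0 for 9 of 38 genes. Between antimiR-452 library 2 and antimiR-224 library 2 the same ratio ran only from -1.14 to 0.21, with a median of -0.30. Dnah5, Dnah11 and Rsph4a have sperm paralogues, and the paralogues Dnah8, Dnah17 and Rsph6a had 1318, 791 and 415 counts in scramblemiR library 2 against 18.5, 9.72 and 0 in antimiR-224 library 2.

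**Figure D3:**
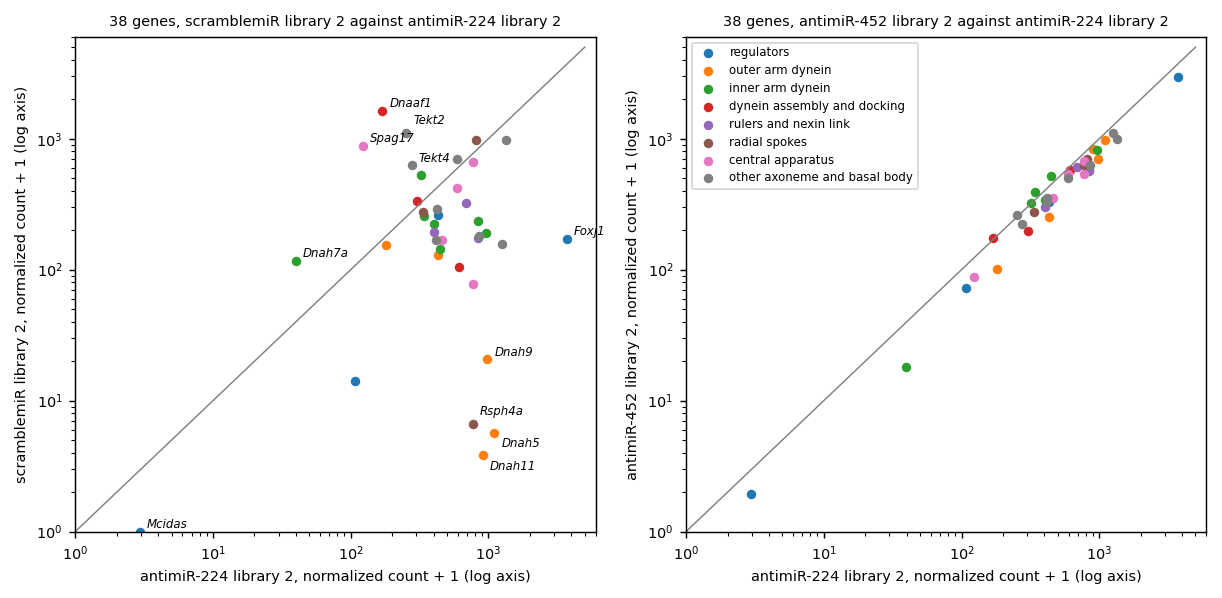
Each point is 1 of the 38 genes, by role class, with normalized count + 1 on log axes; the x axis is antimiR-224 library 2, the y axis scramblemiR library 2 (left) or antimiR-452 library 2 (right), and the grey line marks equal counts. The left panel scatters over log2 ratios of -7.89 to 3.27, with Dnah5, Dnah11 and Rsph4a far below the line and Dnaaf1, Spag17 and Tekt2 above it, while the right panel stays within -1.14 to 0.21.

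Ranked within a library, the 38 genes fell into the same order in some libraries and not in others. Spearman's rho across the 38 genes, which share libraries and are not independent replicates, was 0.90 to 0.98 over the 10 pairs among antimiR-224 libraries 1 and 2 and antimiR-452 libraries 1, 2 and 3. Among scramblemiR library 2 and antimiR-224 libraries 3 and 4 it was 0.68 to 0.89. Between the first set and the second it was -0.18 to 0.08. ScramblemiR library 4, with a lower level, had rho of 0.66 to 0.79 with the first set and 0.10 to 0.36 with the second. Among scramblemiR libraries 1 and 3 and antimiR-452 library 4, where most genes had few reads, rho was 0.81 to 0.90. AntimiR-224 library 4 was not closer to the second set alone. It had rho of 0.68 with scramblemiR library 2 and 0.80 with antimiR-224 library 3. With scramblemiR libraries 1 and 3 and antimiR-452 library 4 it had 0.61, 0.71 and 0.73.

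The simple epithelium and transporting tubule epithelium lists had their highest geometric means in the 5 libraries high in Foxj1. Over 13 simple epithelium genes, the geometric mean was 322 to 656 in the 5 libraries high in Foxj1, 10.7 to 32.3 in 6 others, and 95.6 in scramblemiR library 4. Summed, the 13 genes had 714 to 2427 counts in controls, 1229 to 16230.5 under antimiR-224 and 1091 to 11938.5 under antimiR-452, and none was at 0 in all WAT libraries. Krt8 and Krt18, the keratins of simple epithelium, were their highest genes, at 3188 and 2928 in antimiR-224 library 2 against 104 and 144 in scramblemiR library 1. Over 16 of 17 transporting tubule epithelium genes, leaving out Aqp1, which had 17198 to 19137 counts in the controls and whose inhibitor libraries could not be recovered, the geometric mean was 34.0 to 84.3 in those 5 libraries and 2.88 to 8.53 in the other 7. Summed, they had 604 to 1120 counts in controls, 995 to 11691.5 under antimiR-224 and 903 to 9491.3 under antimiR-452. The endocytic receptor Lrp2, the kidney-type cadherin Cdh16 and the epithelial factor Ehf had the highest means among those recovered in all 12 libraries, with 5671, 2640 and 1171 counts in antimiR-224 library 2 against 497, 13.3 and 12.4 in scramblemiR library 1. Of its defining genes, Slc4a9, Slc26a4 and Cldn16 stayed under 10 counts in all WAT libraries, while Pax8, a factor of duct and tubule epithelium, had 472 to 1019 in the 5 libraries, 115 in scramblemiR library 4 and at most 10.3 elsewhere. The part of these epithelial genes in the levels of the 38 was not tested.

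The 25 spermatid and sperm genes were at or above 100 counts for 25 of 25 genes in scramblemiR library 2, 21 in antimiR-224 library 3 and 11 in antimiR-224 library 4. Summed, they had 123 to 49010.2 counts in controls, 544 to 13464.8 under antimiR-224 and 170 to 1182 under antimiR-452, with none at 0 in all WAT libraries. Prm2, a protamine that packs sperm DNA, Ldhc, the germ cell lactate dehydrogenase, and Tnp2, a transition protein, had 6900, 4868 and 3437 counts in scramblemiR library 2. In antimiR-224 libraries 3 and 4 Prm2 had 1759 and 637. Of 10 spermatocyte genes, Mael had 1578 counts in that control library against at most 434 in the other 11, and Sycp3 258 against 52.2 to 433. The part of sperm-lineage RNA in the levels of Dnaaf1, Spag17 and the tektins was not tested. Of 10 epididymal genes, Lcn5 and Lcn10 were at 0 and Lcn8, Lcn9, Cst11 and Defb15 under 10 in all WAT libraries. Adam7 had 4253 counts in antimiR-224 library 2, 1127 in antimiR-452 library 1 and at most 124 elsewhere. Cst8, an epididymal cystatin, had 298 in scramblemiR library 2 and at most 69.8 elsewhere, and Rnase10 1.11 to 17.9. Crisp1, a secreted epididymal protein, had 496 in scramblemiR library 2 and 2798 in antimiR-452 library 1, with antimiR-224 not recovered. The part of epididymal RNA was not tested.

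Lists for other tissues that hold ciliated cells were read in the same way. Of 10 airway and ependyma genes, Scgb3a2 and Bpifb1 were at 0 and Sftpb and Bpifa1 under 10 in all WAT libraries, and the klotho gene Kl, which renal tubules also express, had 418 to 596 counts in the 5 libraries and at most 43.6 elsewhere. Ttr, made by choroid plexus, had 69.1 to 362. Of 11 oviduct, uterus and ovary genes, Foxl2, Zp2, Zp3, Cyp19a1 and Msx2 stayed under 10 counts in all WAT libraries. Muc16 had 37.1 to 2770, Fst 183 to 466, and Ovgp1, the oviduct glycoprotein, had 23.3 to 96.2. The deposited means of 6 and 3 of the 11 were higher with antimiR-224 and antimiR-452, with median log2 ratios of 0.22 and -0.64. Msln and Lrrn4, genes of the mesothelium that covers visceral fat, were present in all 12, with 377 to 4174 and 159 to 4188 counts. Of 6 mesothelium genes, the deposited means of 6 were higher with antimiR-224 and of 1 with antimiR-452. The median log2 ratios were 0.64 and -0.30. Fat cell genes had lower means in the inhibitor groups. In the authors' deposited table the means of 8 of 8 adipocyte genes were lower in both inhibitor groups. Their median log2 ratios were -0.44 and -0.30 in the antimiR-224 and antimiR-452 comparisons. Among all genes with a mean of at least 10, 9478 of 17903 and 10127 of 17824 were lower. No adipocyte gene of the list was recovered in all 12 WAT libraries, so only group means are given for it. Of 6 brown adipocyte genes 5 were lower in each, with medians of -1.88 and -1.14. Cox8b, a cytochrome oxidase subunit of brown fat, had 22.6 to 631 counts in controls and 19.4 to 144 in inhibitor libraries, and Ppargc1a, a coactivator of mitochondrial genes, had 122 to 479 over all 12. The part of these differences in the levels of the 38 was not tested.

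**Figure D4:**
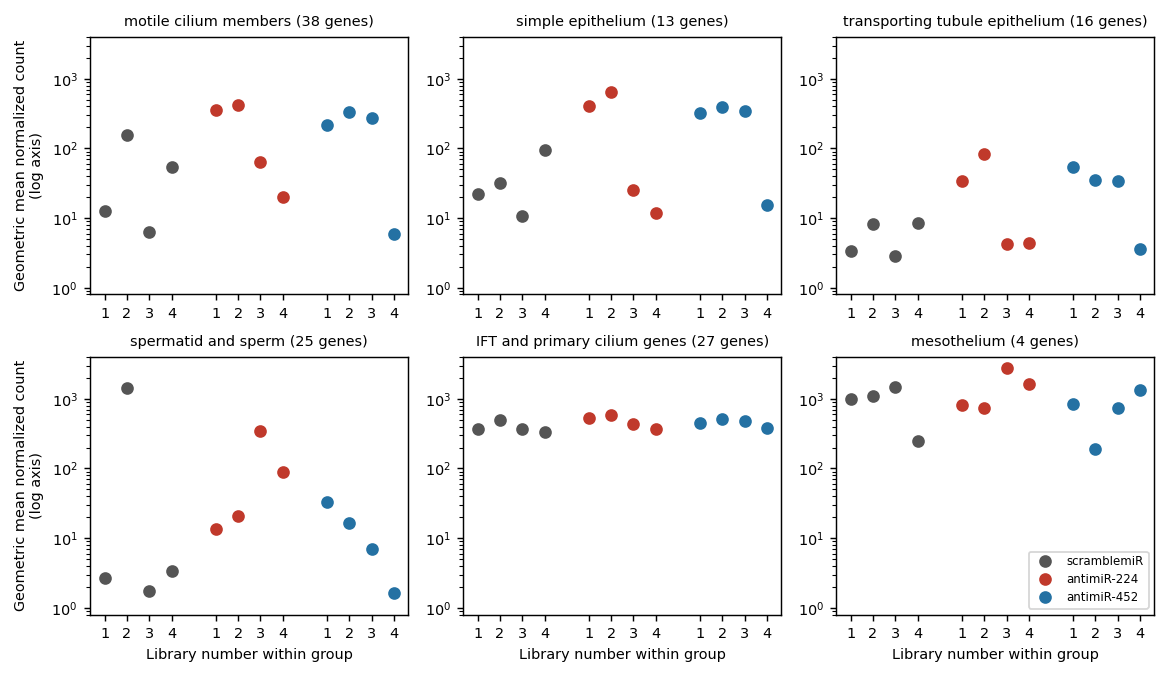
Geometric mean of the normalized count (log axis) of the 38 motile cilium genes and of 5 marker lists in each WAT library (x axis, library number within its group; points, libraries coloured by group). The simple epithelium and tubule lists were high in the same 5 inhibitor libraries as the 38 genes, the sperm list was highest in scramblemiR library 2 at 1442, and intraflagellar transport genes stayed between 331 and 587.

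Other genes of the programme were read beside the 38. Of 71 other motile cilium genes, all listed in WAT, the authors' deposited table gave a higher mean for 62 and 60 in the antimiR-224 and antimiR-452 comparisons, with median log2 ratios of 1.17 and 0.98. Their geometric mean over the 70 recovered was 138 to 281 in the 5 libraries, 160 in scramblemiR library 2, and 5.56 to 57.0 elsewhere. Cfap65 and Ccdc181 had the highest means among those recovered in all 12 libraries, Cfap65 with 1328 to 2413 in the 5 libraries and 0 in antimiR-452 library 4, and Ccdc181 with at least 269 in all 12. Sntn, which encodes sentan of the ciliary tip, had 219 to 647 counts in the 5 libraries, 29.9 in scramblemiR library 4 and 0 in scramblemiR library 2 and antimiR-224 library 3.

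The 13 genes of the multiciliation programme, which multiply basal bodies before cilia grow, were mixed. Gmnc, Myb and Trp73, regulators upstream of Foxj1, had 55.6 to 257, 271 to 553 and 135 to 241 counts in the 5 libraries. In scramblemiR library 4 they had 6.89, 59.7 and 18.4. Cep63 and E2f4, with the highest means of the list, were present in all 12 libraries, at 659 to 1692 and 632 to 744. The list's median log2 ratio in the authors' deposited table was -0.01 and 0.04 in the antimiR-224 and antimiR-452 comparisons, close to all genes.

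Intraflagellar transport and primary cilium genes, which nearly every cell needs for its single sensory cilium, varied less over WAT libraries than motile cilium genes. Over the 27 of 30 recovered in all WAT libraries, the geometric mean lay between 331 and 587. Kif3b, a kinesin motor, had 768 to 1350 counts and Ift20, a transport particle subunit, 692 to 1334. The authors' deposited table gave median log2 ratios of 0.19 and 0.15 in the antimiR-224 and antimiR-452 comparisons. Over all genes with a mean of at least 10 the medians were -0.02 and -0.04. Of the 30 genes, 26 and 24 were higher, 86.7% and 80%, beside 47.1% and 43.2% of all genes. Most of the list thus had higher means with either inhibitor, by small ratios.

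The genes most like the 38 over the 12 WAT libraries were found by the root mean square difference between centred log2(count + 1) profiles, among 13711 genes recovered in all 12 with a mean of at least 10. The nearest that were not members were Trank1 at 0.32, Ak9 at 0.33, Dydc2 at 0.39, Ubxn10 at 0.41, Cdkl4 at 0.44 and Creg2 at 0.46, followed by 6430531B16Rik, 1810020O05Rik, BC050972 and Gm43579 at up to 0.52. Ak9 was on the list of other motile cilium genes. For the 37 members that qualified, the difference from their own mean profile had a median of 1.13 and ran from 0.29 to 2.57, while the 10 were picked as the nearest; 8 of the 50 nearest genes were members. Trank1 had 38.1, 462, 13.5 and 131 counts in the controls, 793, 1046, 96.0 and 49.9 in the antimiR-224 libraries, and 721, 727, 574 and 9.99 in the antimiR-452 libraries.

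In BAT the 38 genes were low. Tables of the tissues were normalized separately, so levels are set side by side with no test. The mean over 12 BAT libraries was under 1 normalized count for 17 genes, from 1 to 10 for 11 and at least 10 for 10, and it was below the WAT mean for 37 of 38. Mcidas, Dnah7a, Cfap52, Ccdc113 and Tekt4 were in neither BAT table. Foxj1 had 0, 0.967, 0 and 0 counts in the controls, 0, 1.67, 0 and 0 in the antimiR-224 libraries, and 0, 0, 4.01 and 1.03 in the antimiR-452 libraries. Dnah5 had reads in 1 BAT library only, antimiR-452 library 3, at 3.01, and Rsph4a in antimiR-452 library 1 only, at 2.57. Over the 33 listed genes, the geometric mean per library was 3.97 ± 0.40 in controls, 3.38 ± 0.57 under antimiR-224 and 3.86 ± 0.52 under antimiR-452 (SD, n = 4 each), so the groups overlapped. In the BAT controls the 38 genes took 417 to 505 reads, beside 965 to 13702 in the WAT controls.

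The genes with BAT levels of at least 10 all had reads in every WAT library too. Rfx3 had 103, 63.8, 75.2 and 73.9 counts in the controls, 23.2, 91.9, 73.7 and 59.5 in the antimiR-224 libraries, and 85.7, 67.0, 10.03 and 72.4 in the antimiR-452 libraries. Ccno had 35.1, 39.7, 23.3 and 63.1 in the controls, 45.5, 37.6, 52.2 and 51.3 in the antimiR-224 libraries, and 6.00, 52.4, 110 and 48.6 in the antimiR-452 libraries. Its BAT controls thus held 23.3 to 63.1, beside 12.4 to 25.0 in the WAT controls. Cfap43 had 61.0, 85.1, 209 and 66.3 in the controls, 98.2, 129, 60.1 and 78.1 in the antimiR-224 libraries, and 29.99, 83.5, 122 and 70.3 in the antimiR-452 libraries. In all 3 the groups overlapped.

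No difference passed the test in BAT. With antimiR-224, limma with Benjamini-Hochberg adjustment called 0 of 10 genes tested, where 0 of 11902 genes were called, 0%, and 668 genes but none of the 10 had an unadjusted p under 0.05. The other 28 were too low to be tested or absent. Dnah3 had the largest difference, 0.95 ± 0.48 (SE) on the log2(count + 1) scale, with a 95% interval of -0.13 to 2.02 and an adjusted p of 0.745 by limma (4 against 4 libraries). Rfx3 differed by -0.48 ± 0.41 (SE), interval -1.39 to 0.43, limma adjusted p = 0.760. With antimiR-452, 0 of 10 genes tested and 0 of 12104 genes were called, 0%, and 516 genes but none of the 10 had an unadjusted p under 0.05. Rfx3 had the largest difference in size, -0.76 ± 0.62 (SE), interval -2.17 to 0.64, limma adjusted p = 0.989. Ccno differed by 0.28 ± 0.33 (SE) with antimiR-224 and by -0.05 ± 0.78 (SE) with antimiR-452, with intervals of -0.45 to 1.02 and -1.80 to 1.70. The widest interval was that of Rsph1 with antimiR-452, from -1.87 to 2.09.

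**Figure D5:**
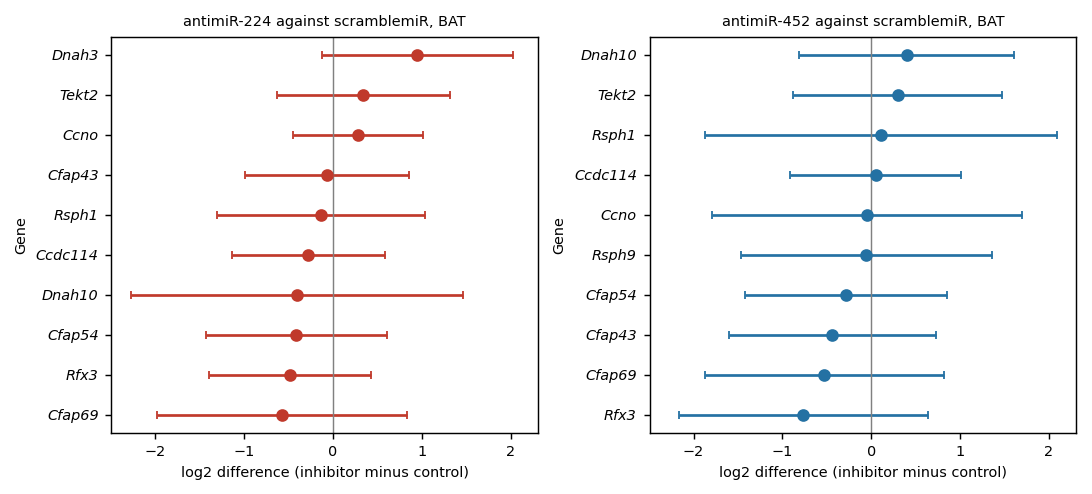
Difference in mean log2(normalized count + 1), inhibitor minus scramblemiR, with its 95% interval from limma (x axis) for the 10 genes tested in BAT (y axis) in each comparison. All 20 intervals include 0, from Dnah3 at 0.95 with antimiR-224 to Rfx3 at -0.76 with antimiR-452.

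The authors' deposited adjusted p called 0 of 30 genes listed with antimiR-224 and 0 of 33 with antimiR-452 in BAT, where 0 of 24084 and 0 of 24248 genes were called, 0% each. With an unadjusted deposited p under 0.05 there was Dnah1 with antimiR-224, with a deposited mean of 5.53 in controls, listed at 0 with the inhibitor, and an unadjusted p of 0.0175, and no gene of the 33 with antimiR-452. Over all genes, 276 of 24084, 1.15%, and 121 of 24248, 0.499%, had an unadjusted deposited p under 0.05. The median log2 ratio of the 38 in the authors' deposited table was -0.20 over 25 finite ratios with antimiR-224, beside -0.05 over all genes with a mean of at least 10. With antimiR-452 it was 0.15 over 29 finite ratios, beside 0.06. Of the 71 other motile cilium genes limma tested 17 and 18 in BAT, and of the 30 intraflagellar transport and primary cilium genes all 30, with 0 called in either comparison.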

How the data were processed

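Poly(A) RNA was read in 24 libraries. In each of 4 tables the authors deposited a mean signal per gene for controls and inhibitor (normalized counts averaged over 4 libraries), their ratio, its log2 and p-values, made with DESeq 1.10.1 in R 2.15.3 against GRCm38.p4, per the submitters' processing notes. The aligner, the counter and the annotation were not given in the sources used here. As the deposited means are sums of whole reads over size factors, the reads of each library were recovered from their digits: for all control genes and for 86.9% to 91.0% of inhibitor genes, with rebuilt means within a relative error of 5.2e-15. Inhibitor reads that remained ambiguous were settled by the deposited mean and ratio, then by the deposited p-value to a relative tolerance of 1e-07; genes settled by p are shown as levels and left out of tests. A recovered library cannot be tied to a sample title.

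log2(normalized count + 1) of genes with a mean of at least 10 was tested with limma 3.58.1 (R 4.3.3; trend and robust variance, Benjamini-Hochberg threshold 0.05), each table alone, 4 against 4 libraries. In simulated data 66% to 71% of genes changed 4-fold and 3% to 9% of genes changed 2-fold were called. The simulated spread between libraries was a set value and was not fitted to these data. These shares are therefore not the power reached here. Gene names came from GENCODE M21 for 99.42% to 99.48% of IDs. The members and lists were chosen with earlier results of these data known. Values in every library are given for the 4 regulators and, in each other class, for the 2 members with the highest WAT mean; other genes named were chosen after their values were seen. In each marker list the 2 or 3 genes with the highest WAT mean among those recovered in all WAT libraries are named, beside others chosen after their values were seen. Alternatives were other pseudocounts, other minimum means, no robust variance, recomputed size factors, the deposited adjusted p and each library left out.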

Additional observations from a re-analysis of the deposited data

Results flagged for a closer look

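Of 78 groups of 4 libraries examined, 13 had 1 library far from the other 3. The rule would flag about 1 in 20 among independent, normally distributed groups. These groups share libraries and their counts are skewed, so no excess over chance is read from the 13. In WAT scramblemiR, library 2 stood above the others for Rfx3 at 261 normalized counts, Dnaaf1 at 1626, Ccdc39 at 323, Rsph1 at 979, Cfap69 at 666 and Hydin at 418. Library 4 of the same group stood above the others for Rsph4a at 47.1. In WAT antimiR-452, library 4 stood below the others for Dnah9 at 4.44, Dnah6 at 24.4 and Dnah10 at 6.66. In BAT, scramblemiR library 3 was far above the others for Cfap43 at 209, antimiR-224 library 2 for Ccdc114 at 49.3, and antimiR-452 library 2 for the geometric mean of the 33 listed genes, at 4.62.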

How the results depend on the processing

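No paired analysis was possible because the recovered libraries carry no replicate number from the labels. Leaving out the sperm-high libraries was chosen after seeing the data. In WAT with antimiR-224 it took the motile cilium genes called from 0 to 23, all genes called from 0 to 1221 and the members' median log2 ratio from 1.54 to 4.11. As genes and libraries were picked from WAT values, this restates the choice; with antimiR-452 the calls stayed at 0 under it. The authors' deposited adjusted p called 1 gene in WAT with antimiR-224, not a member. With 1 library left out at a time, that median ran from 1.05 to 3.33 with antimiR-224 and from 1.24 to 3.20 with antimiR-452. With antimiR-452, 0 to 8 members and 0 to 555 genes were then called. In BAT with antimiR-224 the median ran from -0.299 to 0.0643, the last without scramblemiR library 3, which turned its sign; the cause was not tested. With antimiR-452 it ran from 0.0911 to 0.225. The BAT level of the 33 listed genes (3.97, 3.38 and 3.86 with scramblemiR, antimiR-224 and antimiR-452) was 6.24, 5.58 and 6.01 as a geometric mean of count + 5, and 13.9, 12.2 and 13 as an arithmetic mean. Of the other alternatives for calls of members, 60 gave the same result. How many 2-fold differences could be called with 4 libraries a group was not measured in these data.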
